A study of Mus musculus with 8 samples.

Results

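The mouse mitochondrial genome carries 37 genes, of which 13 encode proteins, 2 encode rRNAs and 22 encode tRNAs. All 37 were taken from the deposited count table as the rows on chromosome MT, out of 53801 genes. Messenger RNA had been sequenced from sorted Lgr5-GFP+ intestinal stem cells of 8 mice, 1 library per mouse. All mice carried Lgr5-EGFP-IRES-CreERT2, which drives a tamoxifen-inducible Cre from the Lgr5 locus, and a β-catenin allele (β-catGOF) that Cre turns into a stabilized form. In 4 mice, labelled β-catGOF; Mll1-/-, both copies of the H3K4 methyltransferase gene Mll1 were floxed. In the other 4, labelled β-catGOF; Mll1+/-, 1 copy was floxed. Mice of 4 to 6 weeks received 50 mg/kg tamoxifen on 3 consecutive days, and crypts were taken 10 days after induction. Recombination takes place only in cells that express the Lgr5 transgene, and mice without β-catGOF or with both Mll1 copies intact are not part of this comparison. The question here was how much of each library came from mitochondrial transcripts, how these transcripts stood to each other, and whether they differed between the genotypes.

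Mitochondrial DNA is a small circle that is present in many copies per cell and is transcribed inside the organelle by its own RNA polymerase, Polrmt. Both strands are copied into long precursors that span many genes, and the tRNAs between the larger genes are cut out, which frees the mRNAs and rRNAs. Most of these RNAs then receive short poly(A) tails, and the encoded proteins are core subunits of respiratory complexes I, III and IV and of ATP synthase. In intestinal crypts, Lgr5+ stem cells are known for active mitochondrial respiration.

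The genes are packed closely, and 35 of the 36 borders between neighbours hold at most 5 spare bases, or an overlap. Coordinates are those of mm10 (GRCm38) in the count table, and sequences were read from the GENCODE transcripts of the same build. mt-Atp8 (chromosome MT, 7766 to 7969) and mt-Atp6 (7927 to 8607) share 43 bases on 1 transcript, shown here in capitals because reads inside them belong to both genes and were left out of the counts.

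mt-Atp8 end: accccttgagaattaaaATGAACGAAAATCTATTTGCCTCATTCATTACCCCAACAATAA
mt-Atp6 start: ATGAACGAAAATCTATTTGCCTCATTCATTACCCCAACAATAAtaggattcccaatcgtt

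mt-Nd4l and mt-Nd4 share 7 bases in the same way. Reading frames of 3 of the 13 protein genes end with a single T, so that the stop codon is only completed by the poly(A) tail. Their last 30 bases are shown because poly(A) is also what the oligo-dT primer of these libraries binds, and the capital marks the base past the last full codon.

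mt-Co3 end: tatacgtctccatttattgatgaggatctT
mt-Nd4 end: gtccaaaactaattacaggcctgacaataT
mt-Cytb end: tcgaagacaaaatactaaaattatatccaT

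Parts of this genome also exist as copies in nuclear chromosomes. A block on chromosome 1, from 24611535 to 24616197, holds 7 annotated pseudogenes that match protein genes from mt-Co1 to mt-Nd4 almost base for base. Gm10925 was identical to mt-Atp6 over 678 bases, Gm28661 to mt-Co2 over 681 bases, Gm28437 to mt-Co3 over 783 bases and Gm28439 to the first 876 bases of mt-Nd4. Gm10222 (24612407 to 24612700) was identical to mt-Nd4l (9877 to 10173) over 294 bases, and this sequence is shown because no read that lies within it can be placed in 1 of the 2 genes.

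mt-Nd4l and Gm10222: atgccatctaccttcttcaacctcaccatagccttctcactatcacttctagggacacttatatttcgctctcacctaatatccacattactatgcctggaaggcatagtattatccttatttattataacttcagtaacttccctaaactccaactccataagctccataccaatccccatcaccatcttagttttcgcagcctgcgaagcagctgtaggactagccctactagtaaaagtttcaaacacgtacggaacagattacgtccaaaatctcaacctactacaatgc

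The 2 remaining copies differ from their gene at 1 base of the aligned stretch, and the alignment of Gm29216 starts only at its base 10. Counted from the first base of the mitochondrial gene, with its base first, the differences were T3C between mt-Nd3 and Gm28438 and A1066T between mt-Co1 and Gm29216, which covers only the last 483 bases of mt-Co1. The stretches around them are shown with the differing base in capitals.

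mt-Nd3: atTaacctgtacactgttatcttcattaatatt
Gm28438: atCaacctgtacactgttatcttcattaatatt
mt-Co1: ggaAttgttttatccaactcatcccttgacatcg
Gm29216: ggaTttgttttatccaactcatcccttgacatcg

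Depth was even, at 14468751 to 16847793 counts on genes per library, with at least 10 counts on 15983 to 17266 genes. Levels are given in CPM, counts per 1000000 TMM-scaled counts of a library. Kmt2a, which encodes Mll1, had 53.5 to 78.5 CPM in the libraries labelled β-catGOF; Mll1-/- and 48.9 to 64.9 CPM in those labelled β-catGOF; Mll1+/- (log2 fold change 0.24, standard error, SE, 0.17, edgeR adjusted p = 0.710). The level was thus not lower under the first label. Counts over the whole gene do not show whether an exon is missing, so the libraries are named by their labels. The library numbers form 2 runs, J_7075, J_7079, J_7096 and J_7100 in run 1 and J_7134, J_7135, J_7136 and J_7139 in run 2, with 2 libraries of each genotype in each run. Sex is not labelled, and mice of both sexes were analysed in the study.

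Mitochondrial genes held 17.1 to 30.1% of all counts, and their share was lower on average in the libraries labelled β-catGOF; Mll1-/-, with overlap between the genotypes. Among these libraries the share was 18.9% in J_7075, 22.3% in J_7096, 17.1% in J_7135 and 27.1% in J_7136. In the libraries labelled β-catGOF; Mll1+/- it was 24.9% in J_7079, 28.7% in J_7100, 30.1% in J_7134 and 23.3% in J_7139. J_7136 lay above 2 of the β-catGOF; Mll1+/- libraries, while the other 3 β-catGOF; Mll1-/- libraries lay below all 4. As sums over the members, the shares are a description with no test. The means were 21.35% ± 4.41 and 26.7% ± 3.18 (SD, n = 4 each), a difference of -5.39 percentage points. Within run 1 the difference was -6.20 points and within run 2 -4.58 points, each between 2 and 2 libraries. Counting error is small beside this spread, since the exact 95% binomial intervals reached at most 0.0236 points to either side. The libraries carry no molecular identifiers, so that these intervals cover counting error only. In sorted pools, fewer mitochondrial transcripts per cell and more of the other transcripts cannot be told apart, and the spike-in transcripts held too few counts (40 in all libraries together) to set an absolute scale.

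**Figure D1:**
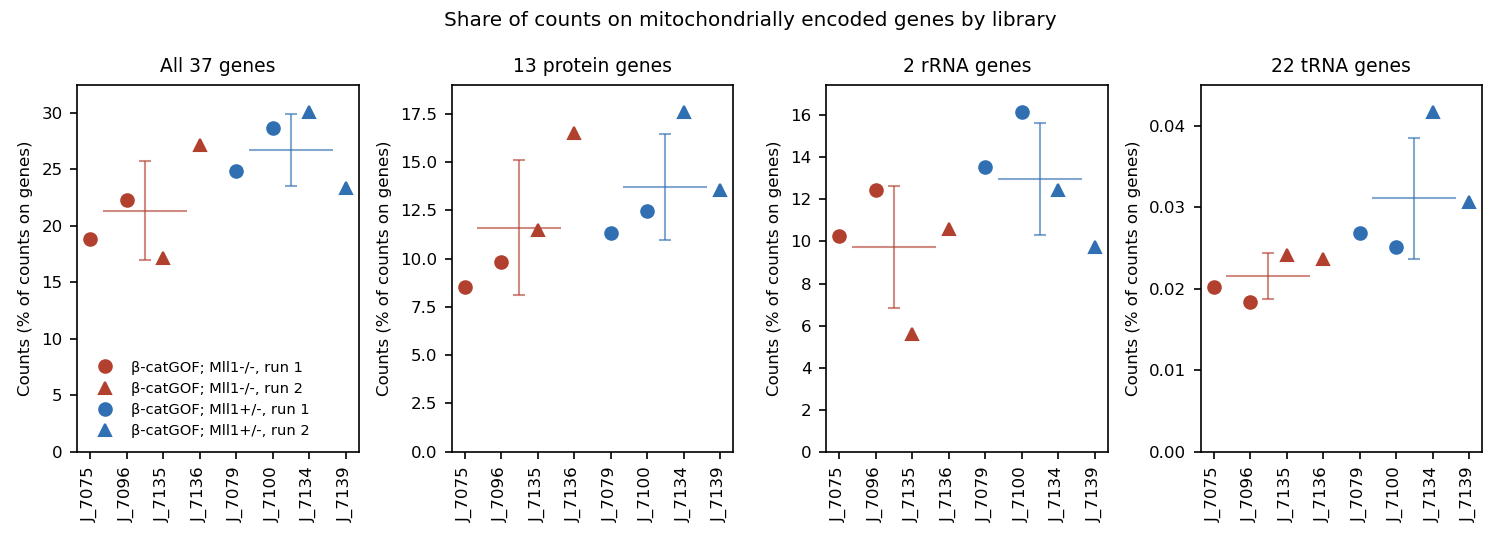
Share of the counts on genes that fell on all mitochondrial genes and on each class, in percent, with 1 point per library. Red is β-catGOF; Mll1-/-, blue is β-catGOF; Mll1+/-, circles are run 1, triangles are run 2, and lines with bars are the mean ± SD of 4 libraries. The genotypes overlap in the first 3 panels and not in the tRNA panel, where the libraries labelled β-catGOF; Mll1-/- reach at most 0.0242%.

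The 2 rRNA genes and the 13 protein genes made up nearly all of these counts. mt-Rnr1 and mt-Rnr2, the 12S and 16S rRNAs of the mitochondrial ribosome, together held 10.3, 12.4, 5.62 and 10.6% of the counts in J_7075, J_7096, J_7135 and J_7136. They held 13.5, 16.2, 12.5 and 9.74% in J_7079, J_7100, J_7134 and J_7139. J_7135 had the lowest rRNA share by far, and J_7139 lay below 3 of the 4 β-catGOF; Mll1-/- libraries. The protein genes held 8.55 to 16.5% of the counts in the libraries labelled β-catGOF; Mll1-/- and 11.3 to 17.6% in those labelled β-catGOF; Mll1+/-, again with overlap. For the tRNA genes the shares were 0.0202, 0.0183, 0.0242 and 0.0237% in J_7075, J_7096, J_7135 and J_7136, against 0.0268, 0.0252, 0.0417 and 0.0307% in J_7079, J_7100, J_7134 and J_7139. Here the values of the genotypes did not overlap, but the margin between J_7135 and J_7100 was within counting error, since their exact 95% intervals, 0.0234 to 0.0249% and 0.0244 to 0.0260%, overlapped. The mean difference was -0.00949 points, and without J_7134, the highest library, it was -0.00594 points. The tRNA rows held only 3029 to 6039 counts per library.

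Among single genes, mt-Rnr2 had the highest mean CPM of all genes in the table, and mt-Cytb ranked 3, mt-Nd1 4 and mt-Co1 5. Per length, mt-Rnr2 stood at 63734 ± 21622 CPM per kb (SD, n = 8 libraries), ranging from 26797 in J_7135 to 98208 in J_7100. mt-Cytb, the complex III subunit cytochrome b, followed at 48272 ± 18491 CPM per kb. These levels overlapped across libraries. mt-Nd1, a membrane subunit of complex I, reached 28505 ± 9495 CPM per kb, mt-Rnr1 15884 ± 4666 and mt-Co1, the catalytic subunit of complex IV, 10913 ± 3213. The other complex I mRNAs lay lower, from mt-Nd4 at 8458 ± 2089.8 CPM per kb to mt-Nd3 at 187 ± 61.8.

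The top and the bottom of the order of the 13 mRNAs were the same in every library, and 8 of the 13 changed rank between libraries. Of the summed counts per kb of the 13 mRNAs, mt-Cytb took 35.3 to 47.5%, mt-Nd1 23.1 to 26.2% and mt-Co1 8.21 to 11.2%. mt-Cytb was first and mt-Nd1 second in all 8 libraries, and mt-Co3, mt-Nd4l and mt-Nd3 were ranks 11, 12 and 13 in all 8. mt-Co1 and mt-Nd4 changed places between ranks 3 and 4. mt-Nd2, mt-Nd5, mt-Nd6 and mt-Atp6, with means from 2.83 to 4.04%, overlapped in their ranks. mt-Cytb exceeded mt-Nd3 182 to 467 times per length, although both lie on the same heavy-strand precursor. The composition did not separate the genotypes: for 0 of the 13 mRNAs did the shares of the 4 and 4 libraries fail to overlap.

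**Figure D2:**
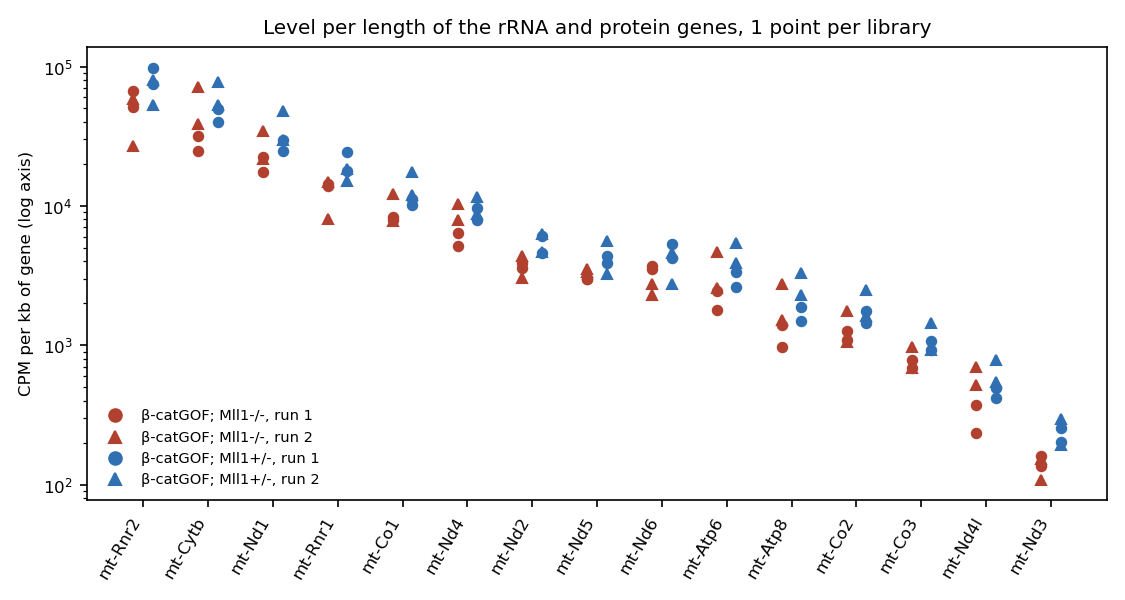
Level of the 2 rRNA and 13 protein genes in CPM per kb of gene (log axis), ordered by mean, with 1 point per library. Colours and symbols give genotype and run, and mt-Nd3 at the right has a mean of 187 CPM per kb while mt-Rnr2 at the left has a mean of 63734.

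The mRNAs of ranks 10 to 13 per length all had a near-identical copy on chromosome 1. Uniquely placed reads were counted, so a read that matches both places equally well is in neither row. mt-Nd3, mt-Nd4l, mt-Co3 and mt-Co2 took ranks 13, 12, 11 and 10 by mean share and are matched over 99.1, 99.0, 99.9 and 99.6% of their length. mt-Atp8 was rank 9, below mt-Atp6, which is matched over 99.6% and was rank 8. No annotated copy of mt-Atp8 was found, but only annotated transcripts were searched. mt-Atp8 lies between mt-Co2 and mt-Atp6, whose copies Gm28661 (24614885 to 24615565) and Gm10925 (24613974 to 24614651) are neighbours in the block. Whether the stretch between these copies matches mt-Atp8 was not tested. The remaining genes with an annotated copy in the block, mt-Nd4 and mt-Co1, are matched over 63.6 and 31.3% and were ranks 4 and 3. Before scaling by length, mt-Nd4 (1378 bases) held 68.0 to 101 times the counts of mt-Nd4l (297 bases), its neighbour on the same bicistronic mRNA. Per length, their means were 8458 and 510 CPM per kb. Reads that match both places are missing from the levels of the matched genes, and how many they were was not tested.

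The copies themselves held many counts. Gm10222 had 82.8 to 105 counts per 100 counts on mt-Nd4l, and Gm28661, Gm10925 and Gm28437 had 40.6 to 60.3 per 100 on their genes. Gm29216 had 2.52 to 3.18 per 100 on mt-Co1 and Gm28439 1.45 to 2.30 per 100 on mt-Nd4. Gm28438 was the only 1 of the 7 above its gene in every library, with 278 to 326 counts per 100 on mt-Nd3. Gm28438 carries T3C, the sequence pair shown above, but a read that starts beyond base 3 and lies within the 345 matched bases is the same in both. Reads that run across the start of mt-Nd3 also overlap mt-Tg and were left out, while no annotated gene adjoins Gm28438 at that end. What part this has in the counts, and which base the reads carry at T3C, was not tested. All 7 copies were lower in the libraries labelled β-catGOF; Mll1-/-, by -0.21 (Gm10222) to -0.75 (Gm28438) on the log2 scale, and 0 passed edgeR's test (lowest adjusted p = 0.328, 3 with an unadjusted p under 0.05, 1 called by DESeq2). Over all genes, 3.75% had such an unadjusted p with a lower level, and DESeq2 called 2.74%. Together the 7 copies held 0.201 to 0.426% of the counts. Less similar copies elsewhere also held counts. Gm13340 and Gm13341 on chromosome 2, 97.6 and 95.9% identical to mt-Co1 and mt-Co2, held 1646 to 2668 and 1822 to 2731 counts per library, and Gm11410 on chromosome 4, 92.9% identical to mt-Cytb, 388 to 1147. Gm11512, Gm13339, Gm11407, Gm4076, Gm11408 and Gm43743 held between 41 and 440. With the 7 copies of chromosome 1 added, the mitochondrial share was 17.4 to 27.5% and 23.7 to 30.5% in the 2 genotypes.

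**Figure D3:**
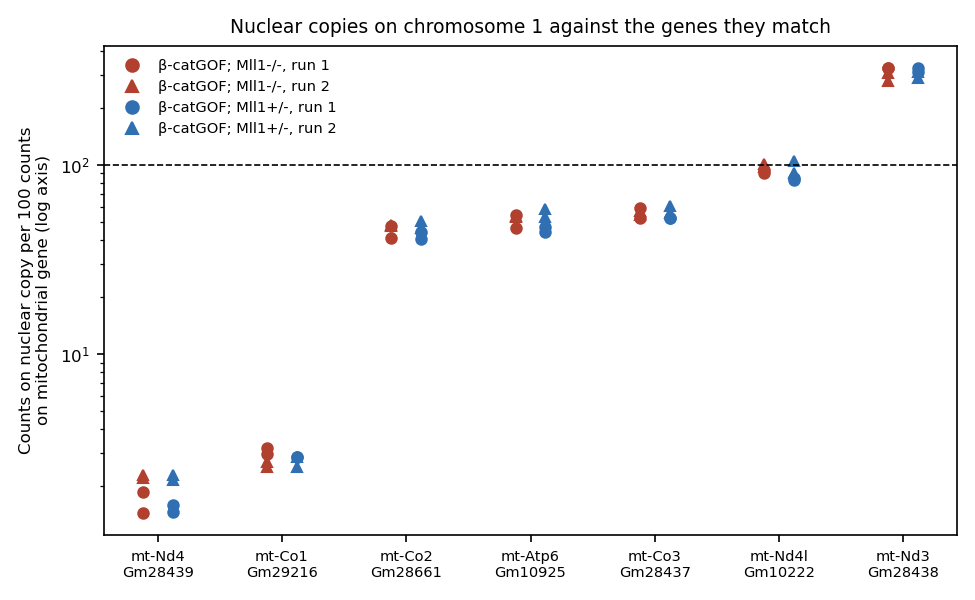
Counts on each nuclear copy per 100 counts on the mitochondrial gene it matches (log axis), with 1 point per library and a dashed line at equal counts. Gm28438 lies above the line in all 8 libraries, at 278 to 326, and Gm28439 and Gm29216 lie at or below 3.18.

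The 22 tRNA genes held 33082 counts in the 8 libraries together, and these were uneven. mt-Tp (tRNA-Pro, 15356 to 15422) alone held 46.5% of them and mt-Tq (tRNA-Gln, 3772 to 3842) 22.01%, followed by mt-Te (tRNA-Glu) with 8.78% and mt-Ts1 (a tRNA-Ser) with 6.54%. All of these are encoded on the light strand, as are 8 of the 22, and the 8 took 86.4 to 92.7% of the tRNA counts of a library. Their sequences are shown because the table was counted without regard to strand. The heavy-strand precursor carries the complement of each of these sequences, and the counts of a tRNA and of its complement cannot be told apart. The tRNA genes are only 59 to 75 bases long. Reads that reach from a tRNA gene into a neighbour overlap more than 1 gene and were left out, so these counts do not rank the tRNAs by level. mt-Ts1, mt-Td, mt-Tk, mt-Tg and mt-Tr lie between mt-Co1 and mt-Nd4, in the stretch with the protein genes that match the block on chromosome 1. Copies were searched only in annotated transcripts, so whether reads of these tRNA genes also match that block was not tested. mt-Tf and mt-Tp, the first and last genes in the sequence, each have an end without a neighbour.

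mt-Tp: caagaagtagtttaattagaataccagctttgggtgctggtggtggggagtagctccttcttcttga
mt-Tq: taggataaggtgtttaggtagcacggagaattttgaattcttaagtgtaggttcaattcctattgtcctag
mt-Te: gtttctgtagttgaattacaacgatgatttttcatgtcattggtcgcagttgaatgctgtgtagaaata
mt-Ts1: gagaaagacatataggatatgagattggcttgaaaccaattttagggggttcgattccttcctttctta

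mt-Te lies between mt-Nd6 and mt-Cytb, and its counts were 0.963 to 1.38 per 100 counts on mt-Nd6, which is also encoded on the light strand. mt-Tp, beyond the far end of mt-Cytb, had 1.76 to 2.72 counts per 1000 counts on mt-Cytb. The 7 tRNA genes that did not reach the filter on low counts were mt-Tf, mt-Th, mt-Tk, mt-Td, mt-Ty, mt-Tg and mt-Tw. None of the 7 had more than 12 counts in a library, and mt-Tk, mt-Td, mt-Ty, mt-Tg and mt-Tw had 0 in at least 1, where a count of 0 allows up to 0.162 to 0.241 CPM, depending on the library.

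Between the genotypes, mitochondrial genes were lower almost throughout in the libraries labelled β-catGOF; Mll1-/-, but no single gene passed the test. Of the 30 members that could be tested (all 13 protein and 2 rRNA genes and 15 tRNA genes), 0 were called by edgeR's quasi-likelihood test at an adjusted p under 0.1, where 14 of the 16445 genes tested were called (0.0851%). The fold change was below 0 for 29 of the 30 and for 49.2% of all genes. Its median was -0.56 on the log2 scale over the 30 members, against 0.01 over all genes. An unadjusted p under 0.05 with a lower level was found for 10 of the 30 (33.3%), against 3.75% of all genes. This count rests on single libraries. It was 5 of 30 without J_7075 (4.11% of all genes), 4 without J_7134 (3.21%) and 16 without J_7136 (3.80%). The 4 libraries of a genotype did not overlap for 6 members, all lower in the libraries labelled β-catGOF; Mll1-/- (20.0% of the 30, against 2.94% of all genes). These 30 genes are cut from shared precursors and move with the mitochondrial share of a library, so that their counts are not 30 independent observations. DESeq2 called 3 of the 30 (mt-Tq, mt-Nd2 and mt-Nd3), that is 3 of the 27 to which it gave an adjusted p, and 2.74% of all genes with one.

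**Figure D4:**
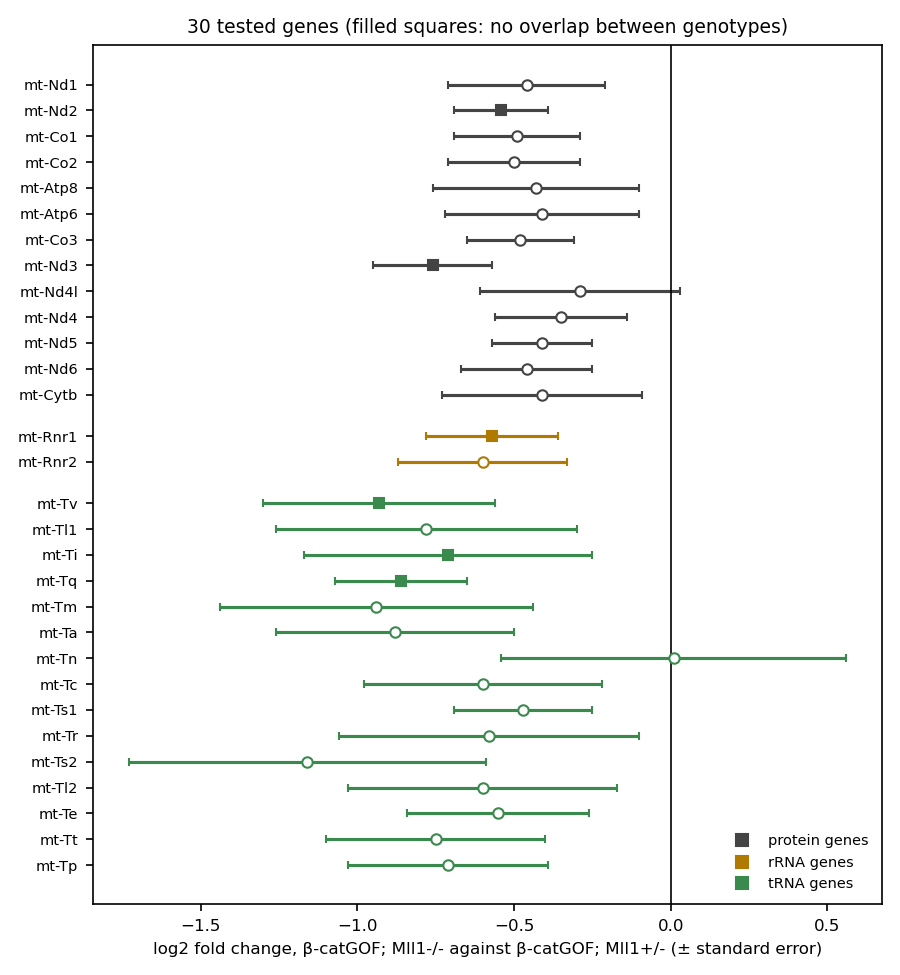
Log2 fold change of the 30 tested genes in β-catGOF; Mll1-/- against β-catGOF; Mll1+/- libraries, with the standard error as bars. Points are grouped by class, filled squares mark genes whose libraries do not overlap between genotypes, and mt-Tn at 0.01 is the 1 gene not below 0.

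Both rRNAs had lower means in the libraries labelled β-catGOF; Mll1-/-. mt-Rnr1 (70 to 1024) stood at 13257, 13756, 7664 and 14266 CPM in J_7075, J_7096, J_7135 and J_7136. In J_7079, J_7100, J_7134 and J_7139 it stood at 17072, 23318, 17546 and 14476 CPM. The genotypes did not overlap, but the margin between J_7136 and J_7139 was narrow, and J_7135 was well below every other library. This gave a log2 fold change of -0.57 (SE 0.21, edgeR adjusted p = 0.485). For mt-Rnr2 (1094 to 2675) the means were 80099 ± 27061 and 121557 ± 29186 CPM (SD, n = 4 each), with overlap and a log2 fold change of -0.60, which was -0.39 without J_7135.

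The 7 complex I genes spanned a wide band from -0.29 (mt-Nd4l) to -0.76 (mt-Nd3) in log2 fold change, and 2 of them did not overlap. mt-Nd3 (9459 to 9806), a small membrane subunit, stood at 47.4, 55.9, 37.6 and 52.7 CPM in J_7075, J_7096, J_7135 and J_7136. It stood at 70.4, 88.1, 102 and 66.6 CPM in J_7079, J_7100, J_7134 and J_7139. Every β-catGOF; Mll1-/- library was below every β-catGOF; Mll1+/- library, with an SE of 0.19 and an edgeR adjusted p of 0.251. Its copy Gm28438 had a similar difference of -0.75. mt-Nd2 (3914 to 4951), a subunit of the proton-pumping arm, stood at 3713, 4012, 3168 and 4548 CPM in J_7075, J_7096, J_7135 and J_7136. Its levels in J_7079, J_7100, J_7134 and J_7139 were 4754, 6312, 6536 and 4809 CPM. These levels also did not overlap (log2 fold change -0.54, SE 0.15, edgeR adjusted p = 0.335). Leaving out each library in turn moved mt-Nd3 between -0.85 and -0.63 and mt-Nd2 between -0.62 and -0.45.

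mt-Nd1, mt-Nd4, mt-Nd5 and mt-Nd6 had log2 fold changes of -0.46, -0.35, -0.41 and -0.46, with overlap in each. Without J_7134, mt-Nd1 was at -0.23 and mt-Nd5 at -0.25. mt-Nd4 was at -0.21 without J_7075 and -0.54 without J_7136, and mt-Nd4l, at -0.29 with all libraries, was at -0.08 without J_7075 or J_7134 and -0.57 without J_7136. mt-Nd6, the only protein gene of the light strand, stood at 1592 ± 336 and 2187 ± 567 CPM (SD, n = 4 each). mt-Cytb (14145 to 15288) had 28400 CPM in J_7075, 36029 in J_7096, 44394 in J_7135 and 80951 in J_7136. In J_7079, J_7100, J_7134 and J_7139 it had 45596, 56451, 88951 and 61014 CPM. J_7136 was the second highest of all 8 libraries, and the log2 fold change of -0.41 had an SE of 0.32 (edgeR adjusted p = 0.745). Without J_7136 it was -0.80, without J_7134 -0.20 and without J_7075 -0.23.

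The 3 complex IV genes lay close together, at -0.49 for mt-Co1, -0.50 for mt-Co2 and -0.48 for mt-Co3. Without J_7134 they were at -0.30, -0.31 and -0.31. With all libraries, each had an unadjusted p under 0.05, and none passed the adjusted threshold (adjusted p = 0.481 to 0.526, edgeR). mt-Co1 (5328 to 6872) stood at 12207, 12908, 12095 and 18907 CPM in J_7075, J_7096, J_7135 and J_7136. It stood at 15712, 17457, 27046 and 18552 CPM in J_7079, J_7100, J_7134 and J_7139. Only J_7136 reached the range of the other genotype. mt-Atp8 and mt-Atp6, membrane subunits of ATP synthase, had log2 fold changes of -0.43 and -0.41 with standard errors of 0.33 and 0.31. They were at -0.19 and -0.20 without J_7134, at -0.25 each without J_7075 and at -0.80 and -0.76 without J_7136. J_7136 was the highest of the β-catGOF; Mll1-/- libraries for 11 of the 13 protein genes. Without this library, 14 of the 30 members and 4.94% of all genes did not overlap, a count added after the data had been seen. J_7136 was left out because it lay high in its group for these genes. More members without overlap follow from that choice, so the count lends no support to a difference.

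Among the 15 tested tRNA genes, 14 were lower, with a median of -0.71. mt-Tq stood at 50.9, 38.9, 42.1 and 36.5 CPM in J_7075, J_7096, J_7135 and J_7136, and at 60.1, 64.4, 106 and 75.9 CPM in J_7079, J_7100, J_7134 and J_7139. The groups did not overlap, and the log2 fold change of -0.86 (SE 0.21) had the lowest adjusted p of all members, 0.246 (edgeR). mt-Tv and mt-Ti, for which the libraries did not overlap either, rest on 25 to 75 and 7 to 22 counts per library. mt-Tp, the tRNA row with the most counts, stood at 95.5 ± 35.95 and 157 ± 61.9 CPM (SD, n = 4 each) with overlap. mt-Ts2 had the lowest fold change, -1.16 with a standard error of 0.57, on 3 to 25 counts. The remaining tRNA genes overlapped between genotypes, with log2 fold changes of -0.94 (mt-Tm), -0.88 (mt-Ta), -0.78 (mt-Tl1), -0.75 (mt-Tt), -0.60 (mt-Tc and mt-Tl2), -0.58 (mt-Tr), -0.55 (mt-Te) and -0.47 (mt-Ts1). Several rested on 1 library. Without J_7134, mt-Tm was at -0.31, mt-Ta at -0.53, mt-Tt at -0.45 and mt-Tp, at -0.71 with all libraries, at -0.43. mt-Tc was at -0.39 without J_7136, and mt-Tl2 was at -0.96 without J_7096 and -0.30 without J_7100. mt-Tn was the exception at 0.01 (SE 0.55) on 5 to 21 counts, and its sign turned with the scaling and with single libraries.

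The make-up of the mitochondrial counts was set apart by library run. The rRNA genes took 54.5 to 56.5% of the mitochondrial counts in the 4 libraries of run 1 and 32.8 to 41.8% in those of run 2. Within run 1 the values were 54.6 and 55.8% for β-catGOF; Mll1-/- and 54.5 and 56.5% for β-catGOF; Mll1+/- libraries. Within run 2 they were 32.8 and 39.0% against 41.4 and 41.8%. Thus the 2 genotypes interleaved in run 1, and the β-catGOF; Mll1-/- libraries were the lower ones in run 2. Among the mRNAs, the shares of the summed counts per kb did not overlap between runs for 7 of the 13, and between genotypes for 0. mt-Cytb took 35.3 to 39.6% in run 1 and 42.1 to 47.5% in run 2, and mt-Atp8 was also higher in run 2. mt-Nd2 (4.47 to 5.08% against 2.94 to 3.73%), mt-Nd6 (4.10 to 5.22% against 1.55 to 3.00%), mt-Co2, mt-Co3 and mt-Nd3 were lower in run 2. mt-Nd6 had 30.8 to 35.2 counts per 100 counts on mt-Nd5, which it overlaps by 14 bases on the other strand, in run 1 and 18.6 to 24.0 in run 2.

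In an edgeR fit with run and genotype, added after the data had been seen, 0 of the 30 members and 0 of 16445 genes passed for the run. An unadjusted p under 0.05 for the run was found for 10 of the 30 members (33.3%) and for 9.39% of all genes. The log2 difference of run 2 against run 1 was 0.76 for mt-Cytb, 0.71 for mt-Atp6, 0.88 for mt-Tp, -0.45 for mt-Nd6 and -0.43 for mt-Rnr2. A difference between runs in the genotype effect was called for 0 of 30 members (0 with an unadjusted interaction p under 0.05, against 6.86% of all genes) and for 0 of all 16445 genes, and 29 of 30 members were lower in the libraries labelled β-catGOF; Mll1-/- in both runs. With the run as a block in the genotype test, 0 of the 30 were called and 15 had an unadjusted p under 0.05 with a lower level, against 4.71% of all genes. The runs coincide with ranges of mouse numbers, so that run, litter and day of preparation cannot be told apart. Neither the base composition nor runs of A were used to choose genes, but they differ between genes. On the light strand, mt-Nd6 has 22.2% A and no run of A beyond 3. On the heavy strand, mt-Cytb has 31.7% A and mt-Rnr2 38.2% with a run of 7. This is no rule by strand, since the tRNA genes of the light and heavy strands overlap in both measures. The longest run within mt-Nd2 and within mt-Rnr2 is shown in capitals because an oligo-dT primer can bind inside a transcript at such sites. Runs as long as these also lie in mt-Tr, mt-Co1, mt-Nd4 and mt-Nd5. Priming there was not tested.

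mt-Nd2 A run: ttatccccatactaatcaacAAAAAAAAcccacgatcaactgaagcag
mt-Rnr2 A run: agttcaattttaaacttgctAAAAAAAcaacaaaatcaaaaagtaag

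**Figure D5:**
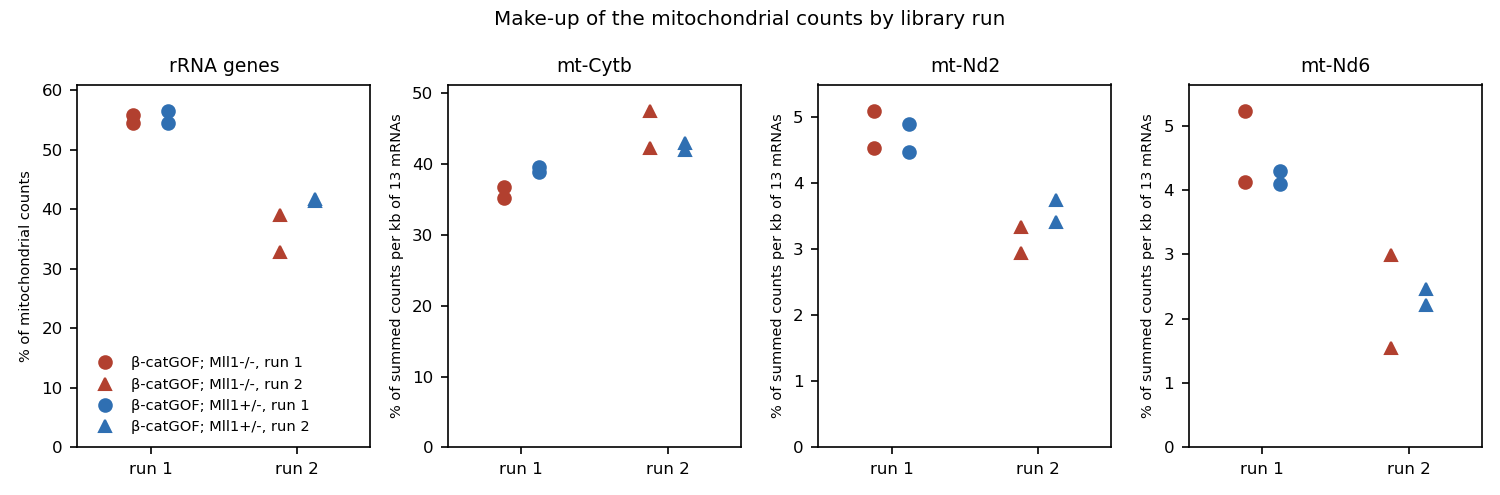
Make-up of the mitochondrial counts in runs 1 and 2, with 1 point per library and colours for genotype. The first panel is the rRNA share of mitochondrial counts and the others are the shares of mt-Cytb, mt-Nd2 and mt-Nd6 in the summed counts per kb of 13 mRNAs, all in percent. rRNA is at 54.5 to 56.5% in run 1 and 32.8 to 41.8% in run 2.

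The nuclear genes that transcribe and process mitochondrial RNA showed no shared direction. Of the 40 in this list, all tested, 20 stood lower and 20 higher under the label β-catGOF; Mll1-/-, and the median log2 fold change was 0.02. edgeR, DESeq2 and limma-voom called 0 of them. In edgeR, 2 had an unadjusted p under 0.05 with a lower and 1 with a higher level, against 3.75 and 5.40% of all genes. Polrmt, the polymerase, stood at 14.1 ± 7.44 and 12.2 ± 0.591 CPM, and Tfb2m, which opens the promoter with it, at 19.2 ± 5.57 and 19.9 ± 2.38 CPM (SD, n = 4 each). Tfam, which packages mitochondrial DNA and starts transcription, stood at 114 ± 4.58 and 138 ± 20.0 CPM, a log2 fold change of -0.27 (SE 0.13, edgeR adjusted p = 0.562). Tefm, the elongation factor, had -0.62 (SE 0.29) and Mtpap, the mitochondrial poly(A) polymerase, -0.44 (SE 0.24), both with overlap. Lrpprc, which stabilizes mitochondrial mRNAs, stood at 65.9, 63.1, 64.5 and 70.6 CPM in J_7075, J_7096, J_7135 and J_7136, and at 78.4, 76.4, 78.2 and 91.8 CPM in J_7079, J_7100, J_7134 and J_7139. Its libraries did not overlap, and it did not pass the test (log2 fold change -0.30, SE 0.12, edgeR adjusted p = 0.505). Fastkd2, which acts on the 16S rRNA, was named after its values were seen, had the lowest unadjusted p of the list and was at -0.48 without overlap.

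In the list of mitochondrial DNA maintenance genes, 10 of 20 were lower, with a median of -0.04, and in the list of biogenesis regulators 8 of 15, with a median of -0.09. Ppargc1a, the coactivator of mitochondrial biogenesis, stood at 13.8 ± 4.55 and 17.1 ± 6.04 CPM (SD, n = 4 each). For turnover and dynamics genes, 13 of 20 were lower, with a median of -0.05. edgeR called 0 genes of these 3 lists (lowest adjusted p = 0.458, 1 gene of each with an unadjusted p under 0.05), and DESeq2 called 1, Esrrg, at -1.31 in edgeR. Over all genes, 3.75% had such an unadjusted p with a lower and 5.40% with a higher level, and DESeq2 called 2.74%. The nuclear genes of the respiratory chain, chosen by symbol after the data had been seen, were lower in 69 of 80 tested, but by little, with a median of -0.12. edgeR called 0 of the 80, and DESeq2 called 2 (Uqcrh and Cox6b1), against 2.74% of all genes. In edgeR, 10 of the 80 had an unadjusted p under 0.05, all lower, against 3.75% of all genes. Uqcrh of complex III, named after its values were seen, had the lowest p among them, at -0.37 without overlap.

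Levels of genes that mark dissociation, RNA retention and cell types were set beside the mitochondrial ones. The dissociation and cell damage list was higher in the libraries labelled β-catGOF; Mll1-/- for 18 of 23 genes, with a median of 0.28. edgeR called 0 of the 23, and DESeq2 called 4, against 2.74% of all genes. In edgeR, 7 of the 23 had an unadjusted p under 0.05 with a higher level, against 5.40% of all genes. The list includes the immediate early genes Jun (0.48) and Dusp1 (0.68), named after their values were seen. Of the nuclear-retained RNAs, 3 of 5 tested were lower, with 0 called and 1 with an unadjusted p under 0.05 in edgeR (Gas5, -0.32), against 3.75% of all genes with a lower level. Malat1, a nuclear RNA, stood at 4881 ± 2049 and 4599 ± 834 CPM (SD, n = 4 each). The summed level of 9 stem cell markers was 11832 to 18326 CPM in the libraries labelled β-catGOF; Mll1-/- and 23948 to 28628 CPM in those labelled β-catGOF; Mll1+/-, and all 9 were detected. Of the 9, 5 were lower and 4 higher, and most of the sum was Olfm4, a stem cell marker, at 8080.3 to 14429 and 19281 to 22949 CPM. The summed levels of 7 Paneth cell markers were 1329 to 2540.3 and 1964 to 4739.9 CPM, and those of 6 goblet cell markers 468 to 979 and 294 to 486 CPM. The 9 enterocyte markers summed to 299 to 319 and 375 to 466 CPM. Of the 7 enterocyte markers tested, 6 were lower and 1 higher. The largest, Vil1, named after its values were seen, was higher, at 148.0 to 198.9 and 120.3 to 145.5 CPM. The 5 enteroendocrine markers summed to 0.722 to 6.66 and 6.02 to 45.1 CPM, and the 4 tuft cell markers to 0.974 to 6.43 and 0.710 to 2.73 CPM with Il25 at 0. The 8 immune markers summed to 122 to 231 and 93.4 to 230 CPM, and the 7 mesenchymal and endothelial markers to 50.2 to 120.0 and 5.42 to 11.7 CPM. Of the last set only 2 could be tested, 1 lower and 1 higher, and most of its sum in the libraries labelled β-catGOF; Mll1-/- was Vim, which encodes vimentin, at 44.3 to 115.5 CPM against 0.194 to 4.89 CPM. Of the 3 immune markers tested, 1 was lower and 2 higher. Over all cell types, edgeR called 0 of 38 tested markers, 13 had an unadjusted p under 0.05 with a lower and 8 with a higher level, DESeq2 called 17 and limma-voom 6. Over all genes, 3.75% had such a p with a lower and 5.40% with a higher level, DESeq2 called 2.74% and limma-voom 103 of 16445 genes. What part these differences have in the mitochondrial levels was not tested.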

How the data were processed

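The authors deposited raw read counts of 53801 genes and 92 spike-in transcripts, made by aligning Smart-seq2 reads of sorted cells (16 PCR cycles of cDNA) to mm10 with GSNAP and counting unique reads with featureCounts 1.6.3 on Ensembl release 92, with a mapping quality of at least 1, without strand, and without reads that overlap more than 1 gene. The deposited gene length, another column, gave the counts per kb. The deposited normalized table was not used here. Read length is not given in the sources used here.

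Counts were filtered with filterByExpr (10 counts, 15 in total), scaled with TMM and fitted with the genotype in edgeR 4.0.16 (robust quasi-likelihood, two-sided, Benjamini-Hochberg over 16445 genes, called under 0.1, R 4.3.3). The spread was 0.435 as the common biological coefficient of variation. The fit was tested on simulated data. Standard errors come from the fold change and F. Alternatives used DESeq2 1.42.0, limma 3.58.1, other scalings, filters and runs. Nuclear copies were found with blastn 2.17.0 on GENCODE release M21 transcripts at 90% identity over 50 bases. scipy 1.17.1 gave the exact intervals.

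All 37 members are named, with called genes of the lists, the nuclear copies with a mean of at least 10 counts, and Polrmt, Tfam, Tfb2m, Tefm, Lrpprc, Mtpap, Ppargc1a, Malat1 and Kmt2a. Members and lists were chosen with earlier results of these data known. The mouse is the replicate.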

Additional observations from a re-analysis of the deposited data

Results flagged for a closer look

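In groups of 4, a library counts as standing apart when its gap to the nearest other, as a part of the range of the group, exceeds Dixon's 95% critical value. Of 88 such groups, 10 did, and chance gives about 1 in 20. Most of these groups are mitochondrial genes or their shares in the same libraries and move together. The count therefore does not measure an excess over chance. In the libraries labelled β-catGOF; Mll1-/-, J_7135 stood apart for mt-Rnr1 (7664 CPM, the others 13257 to 14266), mt-Tm (7.25 CPM, the others 3.15 to 3.78) and Polrmt (25.2 CPM, the others 8.98 to 11.7). J_7136 stood apart for mt-Co1 (18907 CPM, the others 12095 to 12908). In the libraries labelled β-catGOF; Mll1+/-, J_7134 stood apart for mt-Tm (17.2 CPM, the others 4.52 to 6.28) and mt-Ta (19.6 CPM, the others 9.27 to 9.49). J_7139 did so for mt-Te (16.9 CPM, the others 30.0 to 32.6), Tefm (63.2 CPM, the others 34.3 to 39.0) and Lrpprc (91.8 CPM, the others 76.4 to 78.4), and J_7100 for Kmt2a (64.9 CPM, the others 48.9 to 51.2). J_7100 also held 36 counts on spike-in transcripts, all on 1 of the 92, where no other library held more than 2.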

How the results depend on the processing

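The 30 tested members were refitted under 17 alternatives, which gave 504 values with an adjusted p. Of these, 498 kept their direction and their side of the threshold, 3 passed it newly and 3 turned. DESeq2's Wald test called 3 members (mt-Tq, adjusted p = 0.0103, mt-Nd2, 0.0715, and mt-Nd3, 0.0163), 1 nuclear copy (Gm28438), 1 biogenesis regulator (Esrrg, lower) and 4 genes of the damage list (Atf3, Nr4a1, Dusp1 and Cdkn1a, higher), all named after their values were seen. Over the other alternatives the adjusted p lay between 0.152 and 0.469 for mt-Tq, 0.175 and 0.633 for mt-Nd2 and 0.179 and 0.579 for mt-Nd3. limma-voom called 1 biogenesis regulator (Esrrg) and 1 gene of the damage list (Hspa8, lower), and 0 members. Over all genes, 14 calls became 406 with DESeq2, 103 with limma-voom, 34 with at least 10 counts in every library, 47 without a filter, 8 with upper quartile scaling, 0 with the run as a block, and 0 to 45 with a library left out. The cause was not tested. mt-Tn turned to -0.01 with upper quartile scaling, and to -0.32 without J_7135 and -0.21 without J_7079 (range 0.24 to -0.32).

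With each library left out, 0 members were called, and the median log2 fold change of the members ran from -0.67 (without J_7136 or J_7139) to -0.41 (without J_7134). The damage list had 0 or 1 calls (Hspa8 without J_7135), and the difference in mitochondrial share ran from -7.31 to -3.98 points, in rRNA share from -4.32 to -1.87, in protein share from -3.77 to -0.839 and in tRNA share from -0.0115 to -0.00594 points. The share difference was -9.23 counts per 100 nuclear counts, and -2.13 points for protein genes alone. As a share of mitochondrial counts, the protein genes were 2.97 points higher in the libraries labelled β-catGOF; Mll1-/-. mt-Cytb took 42.0% of the mRNA counts and 40.7% per kb. The rRNA share of run 2 minus that of run 1 lay between -17.6 and -14.6 points, with J_7139 and J_7135 left out, respectively.

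Limits are the 4 libraries per genotype, the small counts of most tRNA genes, unstranded counting and reads shared with nuclear copies. Spike-in scaling was not run for lack of counts. No paired analysis was possible because the genotypes share no replicate numbers.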
